A study of Mus musculus with 18 samples.

Results

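The cytokines that signal through the common gamma chain, and their receptor chains, were examined in bone marrow-derived dendritic cells (DCs). The set holds 10 genes: the ligands *Il2* and *Il15*, and the receptor chains *Il15ra*, *Il2ra*, *Il2rb*, *Il2rg*, *Il7r*, *Il4ra*, *Il21r* and *Il13ra1*. They were chosen by gene symbol, and 10 of the 10 symbols have an entry of their own among the 62197 genes measured. A gene was tested if at least 3 libraries held at least 10 normalized counts, that is reads divided by the size factor of the library, and this kept 17875 genes, among them 10 of the 10 members. No nonconfined library reached 10 counts of *Il2*, and 1 of 6 did for *Il2rb*, so these 2 genes passed the filter through the conditions in which they were high.

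The common gamma chain, encoded by *Il2rg*, pairs with a chain specific to each cytokine and passes the signal to Janus kinases and STAT factors. In DCs, interleukin-15 is presented to T cells and natural killer cells on the interleukin-15 receptor alpha chain, and interleukin-2 is a growth factor for T cells that activated DCs can also make. *Il13ra1* encodes a chain that joins the interleukin-4 receptor alpha chain in a receptor without the common gamma chain.

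The study compared cells that carry or lack cPLA_2_, a lipid enzyme encoded by *Pla2g4a*, before and after confinement. Bone marrow of cPLA_2_ WT and cPLA_2_ KO mice was cultured for 10 days with granulocyte-macrophage colony-stimulating factor, and RNA was sequenced from 18 libraries, 3 in each of 6 groups. Nonconfined cells of each genotype were collected at the end of culture, cells confined at a height of 3 µm were collected 4 h after confinement, and a further pair of groups received 100 ng ml-1 lipopolysaccharide (LPS) and was collected the next day. The labels give 30 min of LPS before washing, whereas the methods of the study give a slightly shorter time. The knockout is conditional: floxed *Pla2g4a* alleles are deleted by a Cre recombinase under the *Itgax* promoter, so that cells without *Itgax* activity keep the gene. The methods of the study give both sexes and an age of 8 to 14 weeks for its mice, but 6 to 8 weeks for the donors of bone marrow, and the labels tie no library to an animal, so p-values measure the spread between these libraries. Read totals, recovered by undoing the size factors, ranged from 33027230 to 61300021 per library with a median of 40950398.

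The targeted gene was read first as a check of the labels. *Pla2g4a* had 697, 686 and 770.4 normalized counts in nonconfined cPLA_2_ WT and 548, 542 and 533 in nonconfined cPLA_2_ KO libraries. After confinement it had 1369, 1430.3 and 1321 in cPLA_2_ WT and 923, 871 and 919.5 in cPLA_2_ KO libraries. The libraries labelled LPS cPLA_2_ WT held 1005, 969 and 967 and those labelled LPS cPLA_2_ KO held 1065, 1032 and 1028. Within nonconfined and within confined cells the gene was thus lower in each cPLA_2_ KO library than in each cPLA_2_ WT library, whereas confined cPLA_2_ KO libraries lay above nonconfined cPLA_2_ WT libraries. The libraries labelled LPS cPLA_2_ KO, however, lay above those labelled LPS cPLA_2_ WT, which goes against their labels.

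Genes of the Y chromosome did not follow the LPS labels either, though in another way. *Ddx3y* stood at 3.05, 0 and 1.97 in nonconfined cPLA_2_ WT, 0, 1.72 and 2.37 in confined cPLA_2_ WT, 949, 981 and 874 in nonconfined cPLA_2_ KO and 1036, 920.2 and 948 in confined cPLA_2_ KO libraries. With LPS it stood at 1271, 0 and 662 under the cPLA_2_ WT label and at 2.12, 1476 and 783 under the cPLA_2_ KO label. Among LPS libraries it therefore varied inside each label, from near 0 to above the level of cPLA_2_ KO libraries without LPS. *Acot1*, an autosomal gene, had 3.81, 0 and 0.983 counts in nonconfined cPLA_2_ WT, 478, 377 and 399.8 in nonconfined cPLA_2_ KO, 6.76, 5.15 and 4.74 in confined cPLA_2_ WT and 588, 626 and 589 in confined cPLA_2_ KO libraries, against 54.9, 0.915 and 33.6 and 0, 49.2 and 40.7 under the LPS labels. *Eif2s3y*, *Kdm5d* and *Uty* separated the same libraries as *Ddx3y*. *Xist*, the RNA of the inactive X chromosome, had 27953, 33681 and 30681 counts in nonconfined cPLA_2_ WT and 12153, 19081 and 14328 in nonconfined cPLA_2_ KO libraries. After confinement the genotypes overlapped, with 22734, 33482 and 29759 for cPLA_2_ WT and 16979.6, 24835 and 20600.0 for cPLA_2_ KO. Under the LPS labels it had 26298, 27791 and 27224 for cPLA_2_ WT and 30960.2, 16450.2 and 21654 for cPLA_2_ KO, so that replicate 1 labelled LPS cPLA_2_ WT was high in both *Xist* and *Ddx3y*.

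By a chi-square of read counts per gene, replicate 2 labelled LPS cPLA_2_ WT was closest to replicate 1 labelled LPS cPLA_2_ KO, with a mean of 5.83, and replicate 3 of the labels gave 7.02. Replicate 1 labelled LPS cPLA_2_ WT and replicate 2 labelled LPS cPLA_2_ KO gave 14.9, inside the range of 11.6 to 55.9 of LPS libraries that share a label. No pair of libraries in one treatment agreed within sampling noise, and each was counted once. For these reasons the LPS libraries are named by their labels below, both labels are averaged for comparisons with LPS, and each label alone is given where it changes a call. In libraries without LPS, genotype and the share of cells carrying a Y chromosome cannot be told apart.

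Markers of cell types were read next, because bulk values mix all cells of a culture and fewer cells of a type cannot be told apart from less RNA per cell. All 8 DC markers (*Itgax*, *H2-Ab1*, *Cd74*, *Flt3*, *Zbtb46*, *Cd86*, *Batf3* and *Irf4*) were present, with *Cd74* the most abundant at a mean of 259102 normalized counts over all libraries. Their sum was 353726, 328863 and 334764 in nonconfined cPLA_2_ WT, 410896, 386531 and 401146 in nonconfined cPLA_2_ KO, 310422, 289290.3 and 298564 in confined cPLA_2_ WT and 289368, 274922 and 287978 in confined cPLA_2_ KO libraries. Under the LPS labels it was 485327, 417318 and 445751 for cPLA_2_ WT and 422438, 478063 and 458153 for cPLA_2_ KO. Markers of the labelled cell type were thus abundant in all 18 libraries. *Flt3* was the least abundant of the 8, at means of 119 and 141 in nonconfined and 41.4 and 30.4 in confined cPLA_2_ WT and cPLA_2_ KO cells. Single DC markers differed in direction. With confinement of cPLA_2_ WT cells 2 of 8, *Cd86* and *Irf4*, were higher and 6 lower, and in cPLA_2_ KO cells 0 were higher and 7 lower (all genes: 28.2% higher and 28.4% lower for cPLA_2_ WT, 22.8% and 23.4% for cPLA_2_ KO). The change was lower in cPLA_2_ KO than in cPLA_2_ WT cells for 6 of 8, as it was for 7 of 10 cytokine and receptor genes below, and for 15.6% of all genes. *Cd86* had means of 3151 and 4036 in nonconfined and 8253 and 4082 in confined cPLA_2_ WT and cPLA_2_ KO cells, and *Irf4* had 3658, 2889, 4938 and 2255 in that order.

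Granulocyte markers were abundant and differed between the groups, although the methods of the study say that the culture loses granulocytes, as cells that do not adhere, and that loosely adherent cells were taken. The 8 neutrophil markers, led by *S100a9*, summed to 238752, 243828 and 242192 in nonconfined cPLA_2_ WT, 369490.1, 332192 and 357354 in nonconfined cPLA_2_ KO, 154013, 146804 and 144581 in confined cPLA_2_ WT and 333025, 346015 and 329985 in confined cPLA_2_ KO libraries, and to 308802, 290063 and 292182 under the LPS label cPLA_2_ WT and 276705, 312354 and 294381 under the LPS label cPLA_2_ KO. The 5 eosinophil markers, led by *Prg2*, summed to 28263, 27979 and 27902 in nonconfined cPLA_2_ WT, 67854, 63451 and 65407 in nonconfined cPLA_2_ KO, 7625, 7131 and 7056 in confined cPLA_2_ WT and 16471, 15953 and 16902 in confined cPLA_2_ KO libraries, and to 39860.4, 23376 and 31545 under the LPS label cPLA_2_ WT and 23170.3, 39434 and 32226 under the LPS label cPLA_2_ KO. With confinement 8 of 8 neutrophil markers were lower in cPLA_2_ WT and 3 of 8 in cPLA_2_ KO cells. Both sums were lowest in confined cPLA_2_ WT libraries, and higher in cPLA_2_ KO than in cPLA_2_ WT libraries with and without confinement. Single eosinophil markers differed from their sum. Between the confined genotypes 3 were higher and 2 lower in cPLA_2_ KO cells, between the nonconfined 4 were higher and 1 lower, and with confinement of cPLA_2_ WT cells 1 was higher and 3 lower. *Siglecf* had means of 1402 and 943 in nonconfined and 1447 and 1103 in confined cPLA_2_ WT and cPLA_2_ KO cells, and *Ccr3* had 85.4, 229, 189.7 and 61.3 in that order. The 6 markers of mast cells and basophils, led by *Cpa3*, summed to 9646, 9751 and 9845 in nonconfined cPLA_2_ WT, 14556, 14037 and 14082 in nonconfined cPLA_2_ KO, 4350.3, 4237 and 4397 in confined cPLA_2_ WT and 7511, 7265 and 7543 in confined cPLA_2_ KO libraries, and to 9825, 8988 and 9686 under the LPS label cPLA_2_ WT and 9034, 10260.0 and 9879 under the LPS label cPLA_2_ KO, and were also lowest in confined cPLA_2_ WT libraries. With confinement 5 of 6 were lower and *Kit* was higher in each genotype. The 6 macrophage markers, led by *Cd68*, summed to 24771, 23803 and 24359 in nonconfined cPLA_2_ WT, 27398, 28317 and 27445 in nonconfined cPLA_2_ KO, 25721, 24432 and 25102 in confined cPLA_2_ WT and 28549, 25802 and 28339.7 in confined cPLA_2_ KO libraries, and to 34715, 26881 and 30966 under the LPS label cPLA_2_ WT and 27591, 34042 and 31235 under the LPS label cPLA_2_ KO. This sum hides single genes: with confinement 1 of 6, *Cd68*, was higher and 3 lower in cPLA_2_ WT cells, and 1 was higher and 4 lower in cPLA_2_ KO cells. *C1qa* had means of 389 and 676 in nonconfined and 211 and 312 in confined cPLA_2_ WT and cPLA_2_ KO cells, and *Cd68* had 10975, 12874, 13478 and 17338 in that order. None of these markers was at 0 in all libraries, and their part in the results on cytokines and receptors was not tested.

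The 7 T cell markers, led by *Thy1*, summed to 6076, 6079 and 5895 in nonconfined cPLA_2_ WT, 5905, 5634 and 5814 in nonconfined cPLA_2_ KO, 6700.4, 6278 and 6188 in confined cPLA_2_ WT and 4726, 4868 and 4880.0 in confined cPLA_2_ KO libraries, and to 2728, 5423 and 4138 under the LPS label cPLA_2_ WT and 5748, 2969 and 3914 under the LPS label cPLA_2_ KO. Of the 6 tested, *Thy1*, *Lck* and *Cd28* were higher and *Cd3d*, *Cd3e* and *Cd3g* lower in confined than in nonconfined cPLA_2_ WT cells, and with LPS 2 were higher and 4 lower. *Cd3e* had means of 22.7 in nonconfined cPLA_2_ WT, 8.16 in confined cPLA_2_ WT and 6.47 in LPS-labelled cPLA_2_ WT cells, and *Cd2* had a mean under 10 over all libraries. *Cd3g*, however, had 2337, 2307 and 2274 counts in nonconfined, 708, 753 and 639.6 in confined and 423, 384 and 403 in LPS-labelled cPLA_2_ WT libraries, and *Cd28* had means of 1714, 2006 and 696 in those groups. *Lck* had 56.6, 109.7 and 124, and *Thy1* 1772, 3506 and 2825. The 6 markers of natural killer and innate lymphoid cells, led by *Gata3*, summed to 133, 139.8 and 151 in nonconfined cPLA_2_ WT, 212, 196 and 185 in nonconfined cPLA_2_ KO, 236, 249 and 195 in confined cPLA_2_ WT and 178, 189.8 and 132 in confined cPLA_2_ KO libraries, and to 234, 257 and 214 under the LPS label cPLA_2_ WT and 171, 286 and 238 under the LPS label cPLA_2_ KO. Among them *Ncr1*, *Klrb1c* and *Eomes* had means under 10. Of the 2 tested, *Gata3* was higher with confinement in both genotypes, and *Gzmb* was lower in cPLA_2_ KO cells. The part of these markers in the results was not tested.

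**Figure D1:**
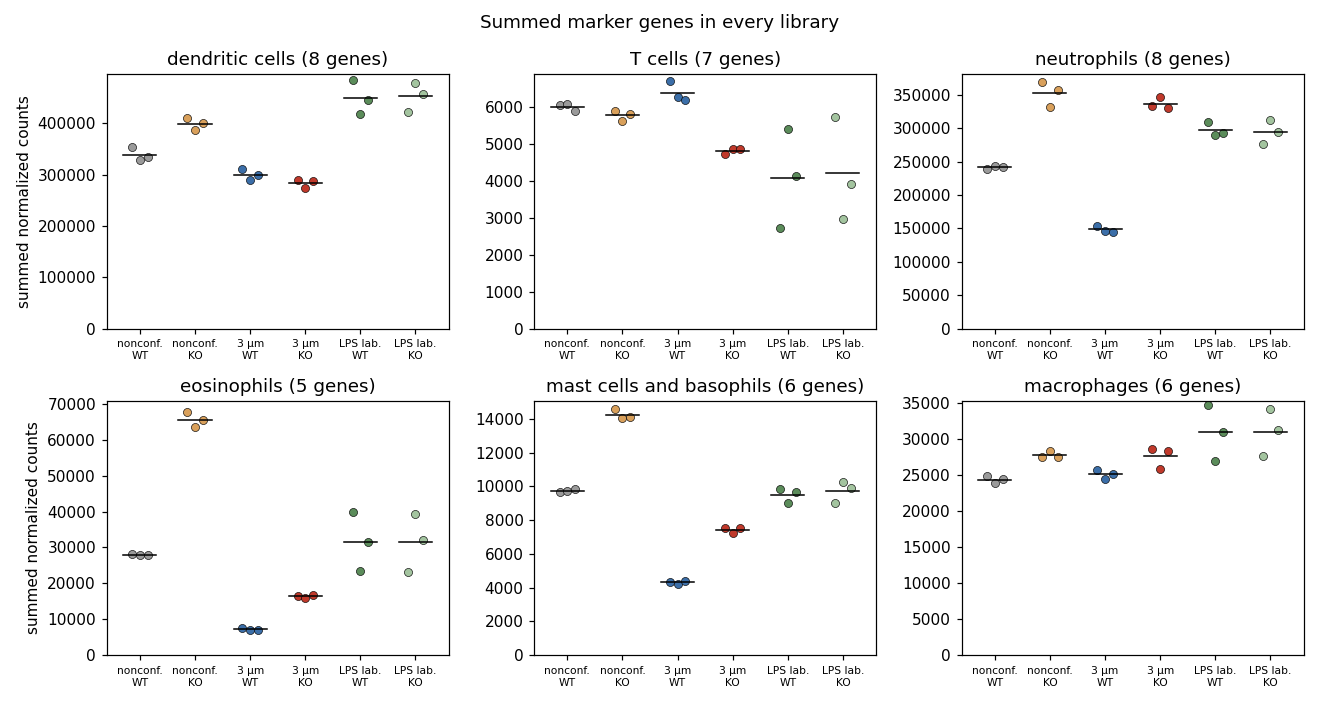
Summed normalized counts of marker genes (vertical axes) in each of the 18 libraries, by group (horizontal axes), with lines at group means. The eosinophil sum lay between 7056 and 7625 in confined cPLA_2_ WT libraries, below every other group.

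Confinement of cPLA_2_ WT cells was asked first, because it is the response that the loss of cPLA_2_ is set against. Of the 10 members, 10 were higher in confined than in nonconfined cPLA_2_ WT cells at an adjusted p under 0.05, whereas 28.2% of all genes tested were higher and 28.4% lower. In cPLA_2_ KO cells 5 of 10 were higher, *Il2*, *Il2rg*, *Il7r*, *Il4ra* and *Il21r*, and 4 were lower, *Il15*, *Il15ra*, *Il2ra* and *Il13ra1*, against 22.8% and 23.4% of all genes. The change with confinement was lower in cPLA_2_ KO than in cPLA_2_ WT cells for 7 of 10 members (*Il15*, *Il15ra*, *Il2ra*, *Il2rb*, *Il2rg*, *Il4ra* and *Il13ra1*), where 15.6% of all genes had a lower and 10.2% a higher change. Compared with confined cPLA_2_ WT cells, confined cPLA_2_ KO cells had 8 of 10 members lower (all genes: 20.6% lower, 18.8% higher). Before confinement only *Il4ra* and *Il21r*, 2 of 10, differed between the genotypes, and both were lower in cPLA_2_ KO cells (8.88% of all genes called in either direction). The median log2 change over the members, in which the fitted value of *Il2* is no bound, reached 1.14 for cPLA_2_ WT and 0.23 for cPLA_2_ KO cells, beside -0.0055 and 0.010 over all genes tested. Since *Il2* and *Il2rb* had few or no reads in nonconfined cells, the counts are also given with a filter at 100 counts, which leaves out these 2. The share of all genes called was not taken at that filter, here or for LPS below. Then 8 of 8 members were higher in confined cPLA_2_ WT cells, 4 were higher and 4 lower in confined cPLA_2_ KO cells, and 6 of 8 had a lower change in cPLA_2_ KO cells. Confined cPLA_2_ KO cells then had 8 of 8 below confined cPLA_2_ WT cells, and nonconfined cPLA_2_ KO cells 3 of 8 below nonconfined cPLA_2_ WT cells. With all 10 but without the 6 LPS libraries, an alternative chosen after seeing the data, the counts of members were 10, 9, 7, 8 and 2 for the same 5 comparisons in turn.

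LPS, a bacterial product that activates DCs, was compared next. With the labels pooled, 9 of 10 members were higher than in nonconfined cells and *Il21r* was lower, where 37.2% of all genes were higher and 34.3% lower. Without *Il2* and *Il2rb*, by a filter at 100 counts, 7 of 8 were higher. Confined cPLA_2_ WT cells had 4 of 10 members above LPS-treated cells, *Il2rb*, *Il7r*, *Il4ra* and *Il21r*, and 6 of 10 below, with 24.5% of all genes higher and 29.8% lower. With the filter at 100 counts 3 of 8 were above and 5 below. With the libraries of the label cPLA_2_ WT alone 9 members were called against nonconfined cells and with those of the label cPLA_2_ KO alone 10, and both gave 10 against confined cPLA_2_ WT cells. Between the LPS labels limma called 0 of 10 members and 0.0% of all genes. At an unadjusted p under 0.05 it had 0 of 10 members and 890 genes, and edgeR and DESeq2 on recovered reads also called 0 genes. These shares move with the scaling of libraries: after scaling each to the same total, all genes gave 3578 genes higher and 7380 lower in confined cPLA_2_ WT cells in place of 5038 genes higher and 5075 lower, and 3640 genes higher and 10160 lower with LPS in place of 6648 genes higher and 6126 lower. The same scaling gave 4741 genes higher and 1962 lower for the difference of the confinement changes in place of 1823 genes higher and 2796 lower, 6001 genes higher and 2604 lower for cPLA_2_ KO against cPLA_2_ WT confined cells in place of 3356 genes higher and 3682 lower, 757 genes higher and 1045 lower for nonconfined cells in place of 854 genes higher and 734 lower, and 8056 genes higher and 2679 lower for confined cPLA_2_ WT against LPS in place of 4383 genes higher and 5318 lower. It moved the median log2 change of all genes to -0.23 for confinement of cPLA_2_ WT cells, -0.46 for LPS, 0.24 for the difference of the changes, 0.19 for the confined genotypes and 0.27 for confined cPLA_2_ WT cells against LPS. No called change of a member turned direction under this or TMM scaling, whereas the uncalled differences of the changes of *Il7r* and *Il21r* turned under the same total, and pathway genes outside the members were not refitted, so their small changes are relative to the scaling used.

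**Figure D2:**
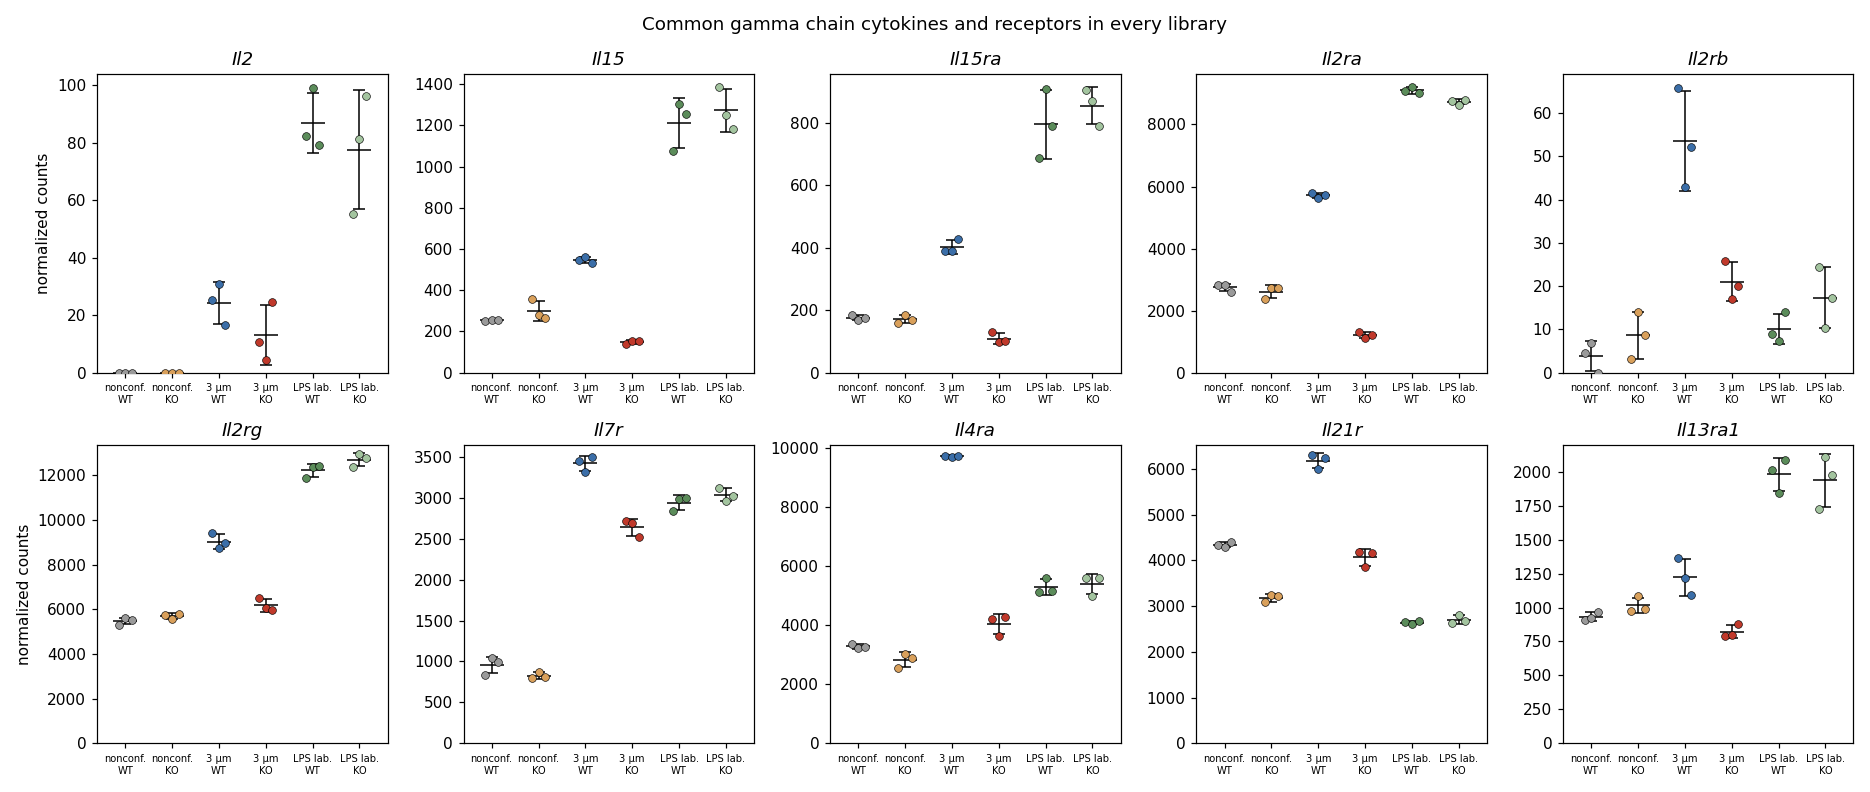
Normalized counts (vertical axes, starting at 0) of the 10 genes in each library, by group (horizontal axes), with bars for the mean ± SD of 3 libraries. *Il15*, *Il15ra* and *Il2ra* share 1 shape, with means of 150.2, 109 and 1215 in confined cPLA_2_ KO cells as their lowest. *Il13ra1* was also lowest there, with a mean of 823, whereas *Il2rb*, *Il7r*, *Il4ra* and *Il21r* peak in confined cPLA_2_ WT cells.

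Among the ligands, *Il2*, which encodes interleukin-2, had no read in any of the 6 nonconfined libraries. After confinement it had 25.1, 30.9 and 16.6 normalized counts in cPLA_2_ WT and 10.8, 4.27 and 24.6 in cPLA_2_ KO libraries, and with LPS 82.4, 98.9 and 79.3 under the cPLA_2_ WT label and 55.2, 81.2 and 96.2 under the cPLA_2_ KO label. Expression of *Il2* was therefore seen in all 12 confined or LPS-labelled libraries, with the ranges of the confined genotypes overlapping and LPS libraries above both. Against a floor of 3 reads in each nonconfined library, confined cPLA_2_ WT cells were at least 9.31-fold higher. Confined cPLA_2_ KO cells were at least 4.92-fold higher, or at least 2.80-fold higher without replicate 3, a choice made after seeing the data, and LPS-treated cells were at least 31.1-fold higher. Confined cPLA_2_ KO cells did not pass the test against confined cPLA_2_ WT cells (adjusted p = 0.0923), and 1 library decided this. The log2 difference was -1.07 with all libraries, -1.63 (adjusted p = 0.0131) without replicate 3 of confined cPLA_2_ KO and -0.49 (adjusted p = 0.451) without replicate 2 of confined cPLA_2_ KO cells.

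The other ligand, *Il15*, encodes interleukin-15, a cytokine that keeps natural killer cells and memory T cells alive. Nonconfined cPLA_2_ WT libraries held 253, 258 and 254 counts, and nonconfined cPLA_2_ KO libraries 356, 281 and 264. Confined cPLA_2_ WT libraries had 546, 563 and 532 and confined cPLA_2_ KO libraries 140.3, 155 and 156 counts. Under LPS the counts were 1074, 1303 and 1254 for the cPLA_2_ WT label and 1386, 1251 and 1181 for the cPLA_2_ KO label. The order of the groups was confined cPLA_2_ KO, nonconfined cPLA_2_ WT, nonconfined cPLA_2_ KO, confined cPLA_2_ WT and LPS, and only the LPS labels overlapped. Confinement raised *Il15* by 1.10 (SE 0.10, adjusted p = 6.53e-09) on the log2 scale in cPLA_2_ WT cells, 2.14-fold, with 3 of 3 libraries above every nonconfined library. In cPLA_2_ KO cells it changed by -0.98 (SE 0.10, adjusted p = 7.57e-08), with 3 of 3 libraries below. The change in cPLA_2_ KO minus that in cPLA_2_ WT cells was -2.08 (SE 0.14, adjusted p = 2.03e-10). With LPS the rise was 2.16 (SE 0.072, adjusted p = 5.18e-17), and nonconfined cPLA_2_ KO and cPLA_2_ WT cells did not differ past the threshold (adjusted p = 0.192).

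*Il15ra* encodes the alpha chain that holds interleukin-15 for presentation. Nonconfined cells had 185, 168 and 175 counts in cPLA_2_ WT and 161, 184 and 169.8 in cPLA_2_ KO libraries. Confined libraries had 390.4, 389 and 428 in cPLA_2_ WT and 129, 97.04 and 101 in cPLA_2_ KO cells. The LPS labels had 686, 908 and 790.0 for cPLA_2_ WT and 905, 871 and 788 for cPLA_2_ KO. Like its ligand, the gene was lowest in confined cPLA_2_ KO cells and highest with LPS, and the nonconfined genotypes overlapped. Confinement changed it by 1.19 (SE 0.12, adjusted p = 1.72e-08) in cPLA_2_ WT and by -0.66 (SE 0.12, adjusted p = 9.27e-05) in cPLA_2_ KO cells, and these changes differed by -1.84 (SE 0.17, adjusted p = 1.49e-08). With LPS it rose by 2.23 (SE 0.083, adjusted p = 3.51e-16), 4.71-fold.

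*Il2ra* encodes the alpha chain (CD25) of the high-affinity interleukin-2 receptor. It had 2819, 2828 and 2616 normalized counts in nonconfined cPLA_2_ WT and 2379, 2728 and 2725 in nonconfined cPLA_2_ KO libraries. Confinement brought 5801, 5633 and 5731 in cPLA_2_ WT and 1311, 1103 and 1231 in cPLA_2_ KO libraries. With LPS the values were 9074, 9215 and 9001 under the cPLA_2_ WT label and 8767, 8642 and 8784 under the cPLA_2_ KO label. Confined cPLA_2_ WT libraries lay above and confined cPLA_2_ KO libraries below all nonconfined ones, and the LPS libraries lay above all others. The log2 change reached 1.06 (SE 0.059, adjusted p = 1.57e-12) for cPLA_2_ WT cells, with -1.10 (SE 0.059, adjusted p = 2.3e-12) for cPLA_2_ KO cells. The difference between confined cPLA_2_ KO and confined cPLA_2_ WT cells was -2.24 (SE 0.059, adjusted p = 5.35e-18), and the change in cPLA_2_ KO minus that in cPLA_2_ WT cells was -2.16 (SE 0.083, adjusted p = 9.2e-15). The 3 libraries labelled LPS cPLA_2_ WT were above the 3 labelled LPS cPLA_2_ KO, but the log2 difference of -0.059 had an adjusted p of 1.

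*Il2rb* encodes the beta chain shared by the interleukin-2 and interleukin-15 receptors, and was the receptor chain with the fewest reads. Nonconfined libraries held 4.57, 6.82 and 0 in cPLA_2_ WT and 3.13, 13.96 and 8.73 in cPLA_2_ KO cells. Confined libraries held 65.7, 42.9 and 52.1 in cPLA_2_ WT and 25.9, 17.1 and 20.05 in cPLA_2_ KO cells. LPS-labelled libraries held 8.88, 7.32 and 13.99 for cPLA_2_ WT and 24.4, 10.3 and 17.3 for cPLA_2_ KO. Confined cPLA_2_ WT cells were above each of the other 15 libraries, and confined cPLA_2_ KO cells overlapped the LPS range. The change was 3.93 (SE 0.62, adjusted p = 1.21e-05) in cPLA_2_ WT cells, and ran from 3.03 to 4.51 when 1 library was left out. In cPLA_2_ KO cells it missed the threshold, at 1.36 (SE 0.62, adjusted p = 0.0774). The difference of these changes, -2.57 (SE 0.87, adjusted p = 0.0336), lost its call without a filter (adjusted p = 0.0763), the highest over the alternatives other than leaving out a single library, and when any of 7 single libraries was left out. It was -1.66 (adjusted p = 0.0954) without replicate 3 of nonconfined cPLA_2_ WT, -2.16 (adjusted p = 0.0912) without replicate 2 of nonconfined cPLA_2_ KO, -2.47 (adjusted p = 0.0684) without replicate 3 of nonconfined cPLA_2_ KO and -2.42 (adjusted p = 0.0753) without replicate 1 of confined cPLA_2_ WT. It was -2.58 (adjusted p = 0.0583) without replicate 3 of confined cPLA_2_ WT, -2.44 (adjusted p = 0.0692) without replicate 2 of confined cPLA_2_ KO and -2.55 (adjusted p = 0.0614) without replicate 3 of confined cPLA_2_ KO. The change in cPLA_2_ KO cells was called, at 1.77 (adjusted p = 0.0401) without replicate 2 of nonconfined cPLA_2_ KO, and also with a pseudocount of 5 (adjusted p = 0.0287) and with DESeq2 (adjusted p = 0.0305), with adjusted p from 0.0287 to 0.148 over the alternatives other than leaving out a single library. The confined genotypes did not differ past the threshold, at -1.31 (SE 0.62, adjusted p = 0.101), whereas edgeR and DESeq2 on recovered reads gave -1.37 (adjusted p = 0.0377) and -1.36 (adjusted p = 0.0112). It was also called with a pseudocount of 5 and with only the compared conditions fitted, with adjusted p from 0.00538 to 0.192 over the alternatives other than leaving out a single library. The rise with LPS, 1.32 (SE 0.44, adjusted p = 0.00998), was not called with the libraries labelled LPS cPLA_2_ WT alone (0.98, adjusted p = 0.114), the highest adjusted p over its alternatives, or after scaling to the same total (0.92, adjusted p = 0.0737).

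*Il2rg*, the common gamma chain itself, lies on the X chromosome. It had 5299, 5588 and 5509 counts in nonconfined cPLA_2_ WT and 5736, 5551 and 5801 in nonconfined cPLA_2_ KO libraries. Confined cells had 9391, 8747 and 8943 in cPLA_2_ WT and 6495, 6050.4 and 5965 in cPLA_2_ KO libraries. The LPS values were 11885, 12383 and 12411 under the cPLA_2_ WT and 12375, 12949 and 12751 under the cPLA_2_ KO label. Nonconfined genotypes overlapped, confined cPLA_2_ KO cells lay just above them, confined cPLA_2_ WT cells higher and LPS libraries highest. In cPLA_2_ WT cells the rise was 0.72 (SE 0.043, adjusted p = 4.43e-12), 1.65-fold. The smaller change in cPLA_2_ KO cells, 0.11 (SE 0.043, adjusted p = 0.0335), lost its call in 3 cases: it was 0.12 (adjusted p = 0.0525) without replicate 1 of nonconfined cPLA_2_ KO, 0.10 (adjusted p = 0.102) without replicate 2 of nonconfined cPLA_2_ KO and 0.077 (adjusted p = 0.178) without replicate 1 of confined cPLA_2_ KO. It was also not called with edgeR, without a filter, after scaling to the same total or with only the compared conditions fitted (adjusted p from 0.0242 to 0.108 over the alternatives other than leaving out a single library). The difference of the changes was -0.61 (SE 0.061, adjusted p = 7.66e-08), and LPS raised the gene by 1.16 (SE 0.030, adjusted p = 7.37e-19).

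*Il7r* encodes the interleukin-7 receptor alpha chain, which is also part of the receptor for thymic stromal lymphopoietin. Its counts were 840.5, 1039 and 989 in nonconfined cPLA_2_ WT and 793, 873 and 814 in nonconfined cPLA_2_ KO libraries. In confined cells they were 3454, 3319 and 3497 in cPLA_2_ WT and 2715, 2688 and 2526 in cPLA_2_ KO libraries. Under the LPS labels they were 2842, 2993 and 2995 for cPLA_2_ WT and 3123, 2965 and 3029 for cPLA_2_ KO. The nonconfined groups, which overlapped, were lowest, and confined cPLA_2_ KO, LPS-treated and confined cPLA_2_ WT cells followed without overlap. The log2 rise was 1.84 (SE 0.064, adjusted p = 5.25e-16) in cPLA_2_ WT cells, 3.59-fold, and 1.68 (SE 0.064, adjusted p = 1.2e-14) in cPLA_2_ KO cells, 3.20-fold. The difference between these changes missed the threshold, at -0.17 (95% confidence interval -0.36 to 0.021, adjusted p = 0.192), and its sign turned after scaling to the same total. LPS raised it by 1.75 (SE 0.045, adjusted p = 6.52e-19). The difference between confined cPLA_2_ KO and cPLA_2_ WT cells was -0.37 (SE 0.064, adjusted p = 7.76e-05). Between nonconfined cPLA_2_ KO and cPLA_2_ WT cells it was -0.20 with an adjusted p of 0.051, and other choices decided its call. Of 6 fits that leave out a library, 2 passed the threshold, at -0.29 (adjusted p = 0.0045) without replicate 1 of nonconfined cPLA_2_ WT and -0.24 (adjusted p = 0.026) without replicate 2 of nonconfined cPLA_2_ KO cells. It also passed with a filter at 100 counts (adjusted p = 0.0384), after scaling to the same total (adjusted p = 0.0313) and with DESeq2 (adjusted p = 0.0262), with adjusted p from 0.0262 to 0.197 over the alternatives other than leaving out a single library.

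*Il4ra* encodes the chain shared by the interleukin-4 and interleukin-13 receptors. Nonconfined libraries had 3366, 3216 and 3258 in cPLA_2_ WT and 2546, 3026 and 2897 in cPLA_2_ KO cells. Confined libraries had 9722, 9667 and 9726 in cPLA_2_ WT and 4204, 3636 and 4259 in cPLA_2_ KO cells. LPS-labelled libraries had 5112, 5603 and 5144 for cPLA_2_ WT and 5594, 4989.9 and 5583 for cPLA_2_ KO. The highest values were those of confined cPLA_2_ WT cells, which also had a narrow spread, and LPS libraries lay between them and confined cPLA_2_ KO cells. Confinement raised *Il4ra* by 1.57 (SE 0.066, adjusted p = 1.34e-14) in cPLA_2_ WT cells, 2.96-fold, and by 0.51 (SE 0.066, adjusted p = 1.55e-06) in cPLA_2_ KO cells. The cPLA_2_ KO change minus the cPLA_2_ WT change was -1.05 (SE 0.093, adjusted p = 1.27e-08). Confined cPLA_2_ WT cells exceeded LPS-treated cells by 0.86 (SE 0.057, adjusted p = 3.47e-11). The difference between nonconfined cPLA_2_ KO and cPLA_2_ WT cells, -0.22 (SE 0.066, adjusted p = 0.0407), lost its call without a filter (adjusted p = 0.0743), with only the compared conditions fitted (adjusted p = 0.0854) and with the replicate number as a block (adjusted p = 0.0601), with adjusted p from 0.0177 to 0.0854 over the alternatives other than leaving out a single library. It also lost its call in 5 of 6 cases in which a library was left out. It was -0.20 (adjusted p = 0.131) without replicate 1 of nonconfined cPLA_2_ WT, -0.23 (adjusted p = 0.0845) without replicate 2 of nonconfined cPLA_2_ WT and -0.22 (adjusted p = 0.102) without replicate 3 of nonconfined cPLA_2_ WT, and -0.15 (adjusted p = 0.247) without replicate 1 of nonconfined cPLA_2_ KO and -0.24 (adjusted p = 0.075) without replicate 3 of nonconfined cPLA_2_ KO cells.

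*Il21r* encodes the interleukin-21 receptor. Its levels were 4334, 4297 and 4401 in nonconfined cPLA_2_ WT and 3081, 3244 and 3215 in nonconfined cPLA_2_ KO libraries. After confinement they were 6305, 5995 and 6248 in cPLA_2_ WT and 4191, 3853 and 4164 in cPLA_2_ KO libraries. With LPS they were 2648, 2601 and 2667 for the cPLA_2_ WT label and 2632, 2807 and 2683 for the cPLA_2_ KO label. This was the only member called lower with LPS, and each treatment without LPS had 3 of 3 cPLA_2_ KO libraries under the cPLA_2_ WT range. Confinement raised it by 0.51 (SE 0.044, adjusted p = 2.35e-09) in cPLA_2_ WT and by 0.35 (SE 0.044, adjusted p = 1.02e-06) in cPLA_2_ KO cells, with a difference that missed the threshold (-0.15, 95% confidence interval -0.28 to -0.024, adjusted p = 0.0766) but passed it after TMM scaling (-0.19, adjusted p = 0.0265) and with edgeR or DESeq2 (adjusted p from 0.0265 to 0.662 over the alternatives other than leaving out a single library). The sign of that difference turned, without a call, after scaling to the same total. LPS changed it by -0.48 (SE 0.031, adjusted p = 8.22e-12), and confined cPLA_2_ WT cells stood 2.31-fold above LPS-treated cells. The difference between nonconfined cPLA_2_ KO and cPLA_2_ WT cells was -0.45 (SE 0.044, adjusted p = 1.95e-06).

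*Il13ra1*, which like *Il2rg* is X-linked, encodes a chain that binds interleukin-13. It had 909, 919 and 969 counts in nonconfined cPLA_2_ WT and 977, 1082 and 988 in nonconfined cPLA_2_ KO libraries. Confined libraries had 1362, 1214 and 1091 in cPLA_2_ WT and 792, 795 and 881 in cPLA_2_ KO cells. The LPS labels had 2014, 1844 and 2085 for cPLA_2_ WT and 1724, 2109 and 1978 for cPLA_2_ KO. Confined cPLA_2_ KO cells were lowest and LPS libraries highest, with confined cPLA_2_ WT cells between nonconfined and LPS-treated ones. The gene changed by 0.38 (SE 0.082, adjusted p = 0.000415) in cPLA_2_ WT and -0.30 (SE 0.082, adjusted p = 0.00467) in cPLA_2_ KO cells, and the difference was -0.69 (SE 0.12, adjusted p = 0.000108). After each library was scaled to the same total, the cPLA_2_ WT rise was 0.16 (adjusted p = 0.0847) and no longer called, the highest adjusted p over its alternatives. LPS raised it by 1.01 (SE 0.058, adjusted p = 9.49e-13), 2.01-fold.

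**Figure D3:**
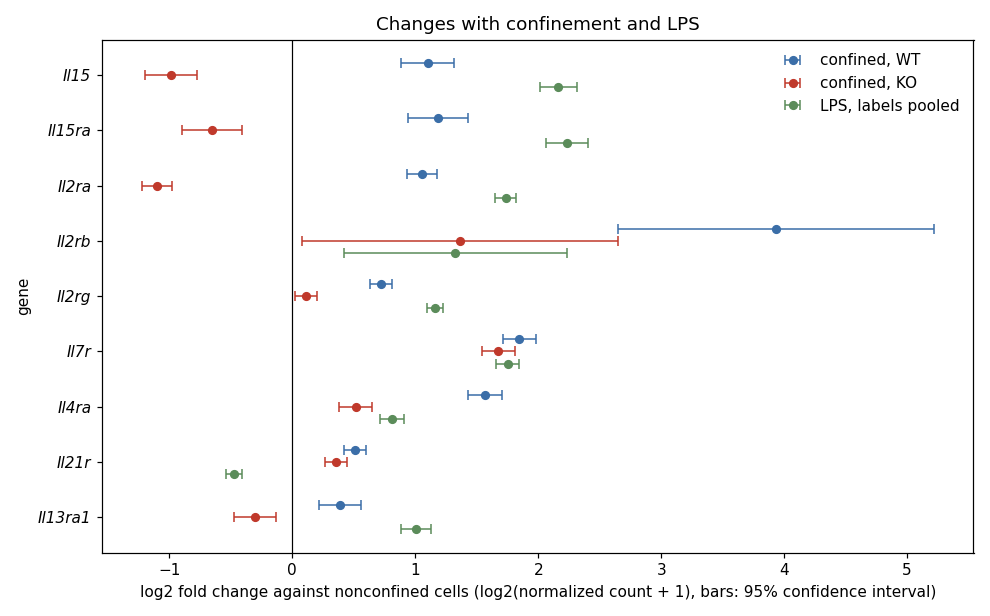
Log2 fold changes against nonconfined cells (horizontal axis) of 9 genes (vertical axis; *Il2*, without a read in nonconfined cells, is left out), with 95% confidence intervals from limma, for confined cPLA_2_ WT, confined cPLA_2_ KO and LPS-treated cells. *Il7r* rose by 1.84 and 1.68 in confined cPLA_2_ WT and cPLA_2_ KO cells, whereas *Il2ra* changed by 1.06 and -1.10.

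Levels were compared between genes per kilobase of exon, with exon lengths from the GENCODE annotation of the same genome build (the deposited values used another annotation). In nonconfined cPLA_2_ WT cells *Il2rg* led with 2289.6 normalized counts per kilobase, followed by *Il21r* with 1281, *Il2ra* with 482, *Il4ra* with 329, and *Il7r* with 205 and *Il13ra1* with 197, whose ranges overlapped. The levels per kilobase of *Il15ra* and *Il15* were 39.6 and 36.7, that of *Il2rb* was 0.873, and *Il2* was at 0. In confined cPLA_2_ WT cells *Il2ra* (1002 per kilobase) stood close above *Il4ra* (973) and both stood above *Il7r* (734). In confined cPLA_2_ KO cells the level per kilobase of *Il2ra* fell to 213, below *Il7r* (567) and *Il4ra* (404). With the LPS label cPLA_2_ WT, *Il2ra* reached 1593 and passed *Il21r* at 778 per kilobase. The beta chain *Il2rb*, which interleukin-2 and interleukin-15 receptors need for signaling, had 12.3 counts per kilobase in confined cPLA_2_ WT cells, where *Il2rg* had 3782 and the range of *Il2* overlapped that of *Il2rb*.

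The likeness of patterns was described by Pearson's r of log2(normalized count + 1) over the 18 libraries, which share their groups, so that r mostly reflects differences between groups. Among members, *Il15* and *Il15ra* had r = 0.986, *Il15ra* and *Il2ra* r = 0.977, and *Il15* and *Il21r* r = -0.486. Of 10546 other genes with a symbol and a mean of at least 100 counts, those most like *Il15* were *Irf7* (r = 0.995) and *Gbp3* (r = 0.994), those most like *Il15ra* *Ms4a4c* (r = 0.995) and *Gpr85* (r = 0.994) and those most like *Il2ra* *Slfn8* (r = 0.998) and *Usp18* (r = 0.997). *Irf7* had means of 3663 in nonconfined cPLA_2_ WT, 9105 in confined cPLA_2_ WT, 1755 in confined cPLA_2_ KO and 29229.6 in LPS-labelled cPLA_2_ WT cells, and *Usp18* had 4928, 13805, 1609 and 27175. Both thus had the low value in confined cPLA_2_ KO cells that *Il15*, *Il15ra* and *Il2ra* had.

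The other members had different nearest genes over the same 18 libraries. For *Il2rg* they were *Tpm4* (r = 0.998) and *Ext1* (r = 0.997), for *Il13ra1* *Tdrd7* (r = 0.985), and for *Il2* *Crk* (r = 0.989) and *M6pr* (r = 0.987). For *Il7r* they were *Arih1* (r = 0.992) and *Dnajb4* (r = 0.990), for *Il4ra* *Chst11* (r = 0.988) and *Smox* (r = 0.980), and for *Il21r* *Tinf2* (r = 0.960) and *Gtf2ird1* (r = 0.956). *Il2rb*, with few reads, had the lowest likeness, to *Txk* (r = 0.857) and *Sh2b2* (r = 0.855). *Smox*, which encodes a spermine oxidase, had means of 1286, 7310.0 and 2387 in nonconfined cPLA_2_ WT, confined cPLA_2_ WT and confined cPLA_2_ KO cells and 3510.2 under the LPS label cPLA_2_ WT, in the order that *Il4ra* had over these 4 groups.

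Other genes of the pathway were read from lists. Of 6 further ligands, *Il4*, *Il7*, *Il13* and *Tslp* were tested, while *Il9* and *Il21* did not pass the filter. Of the 4 tested, 3 were higher in confined cPLA_2_ WT cells, and 2 were higher and 1 lower in confined cPLA_2_ KO cells. These counts include *Tslp*, which had under 10 counts in each nonconfined library and passed the filter through confined and LPS libraries. Without it 2 of 3 were higher in cPLA_2_ WT cells, and 1 was higher and 1 lower in cPLA_2_ KO cells. In these 2 comparisons, the shares of all genes called are 28.2% higher and 28.4% lower for cPLA_2_ WT and 22.8% higher and 23.4% lower for cPLA_2_ KO cells. *Tslp*, which encodes thymic stromal lymphopoietin, had 0, 1.71 and 3.93 counts in nonconfined and 182, 155 and 166 in confined cPLA_2_ WT libraries. In cPLA_2_ KO libraries it had 0, 0 and 5.82 without and 16.2, 4.27 and 9.11 with confinement, and under the LPS labels 279, 315 and 256 for cPLA_2_ WT and 263, 254 and 286 for cPLA_2_ KO. Confined cPLA_2_ WT libraries lay far above confined cPLA_2_ KO libraries and below those with LPS, and confined and nonconfined cPLA_2_ KO libraries overlapped. No fold change is given, as nonconfined libraries were near 0. *Il13* rose in both genotypes, by 2.46 (SE 0.34, adjusted p = 2.21e-06) and 1.49 (SE 0.34, adjusted p = 0.00107). *Il4* rose by 1.29 (SE 0.34, adjusted p = 0.0029) in cPLA_2_ WT cells and stood at 0.32 (SE 0.34, adjusted p = 0.478) in cPLA_2_ KO cells, with a difference that missed the threshold (adjusted p = 0.157). *Il7* stood at 0.22 (SE 0.48, adjusted p = 0.731) in cPLA_2_ WT cells and fell in cPLA_2_ KO cells, with a log2 change of -1.71 (SE 0.48, adjusted p = 0.00615). Of 3 further receptor chains *Il13ra2* did not pass the filter, and *Crlf2*, which with *Il7r* forms the receptor for the product of *Tslp*, was higher in confined cPLA_2_ WT cells, by 0.22 (SE 0.055, adjusted p = 0.00185), and in confined cPLA_2_ KO cells, by 0.14 (SE 0.055, adjusted p = 0.0483). *Il9r* was at -1.24 in cPLA_2_ WT (adjusted p = 0.101) and -1.02 in cPLA_2_ KO cells (adjusted p = 0.198), with a median for these 2 genes of -0.51 for cPLA_2_ WT and -0.44 for cPLA_2_ KO cells.

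Of 8 Janus kinases and STAT factors, 6 were higher in confined cPLA_2_ WT cells, and 4 were higher and 2 lower in confined cPLA_2_ KO cells (all genes: 28.2% higher and 28.4% lower for cPLA_2_ WT, 22.8% higher and 23.4% lower for cPLA_2_ KO). The change was lower in cPLA_2_ KO than in cPLA_2_ WT cells for 6 of 8, and for 15.6% of all genes. Their median log2 change was 0.63 for cPLA_2_ WT and 0.18 for cPLA_2_ KO cells, beside -0.0055 and 0.010 for all genes tested. *Stat5a*, which transmits interleukin-2 and interleukin-15 signals, had 3677, 3453 and 3585 counts in nonconfined and 12431, 11615 and 12389 in confined cPLA_2_ WT libraries, and 3035, 3182 and 3216 and then 3882, 3537 and 3808 in cPLA_2_ KO libraries. Confined cPLA_2_ WT libraries stood above all others without LPS. Its changes were 1.77 (SE 0.049, adjusted p = 8.94e-18) and 0.25 (SE 0.049, adjusted p = 0.000234). *Stat5b*, its close relative, changed by 0.95 (SE 0.068, adjusted p = 1.21e-10) and 0.29 (SE 0.068, adjusted p = 0.00144), and *Stat3*, used by the interleukin-21 receptor, by 1.69 (SE 0.073, adjusted p = 1.82e-14) and 0.27 (SE 0.073, adjusted p = 0.00379). *Jak2* rose by 1.31 (SE 0.047, adjusted p = 7.24e-16) in cPLA_2_ WT cells and stood at 0.037 (SE 0.047, adjusted p = 0.545) in cPLA_2_ KO cells. The entry of *Jak3*, the kinase bound to the common gamma chain, also holds *Insl3*, and it stood at 0.19 in cPLA_2_ WT (adjusted p = 0.0585) and -0.68 in cPLA_2_ KO cells (adjusted p = 7.82e-07). With LPS 8 of 8 were higher, where 37.2% of all genes were, with a median of 1.28 beside 0.020 for all genes.

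Of 6 inhibitors of the pathway, 4 were higher and 2 lower in confined cPLA_2_ WT cells, and 2 higher and 3 lower in confined cPLA_2_ KO cells, with medians of 0.60 and -0.18 (all genes: 28.2% higher and 28.4% lower for cPLA_2_ WT, 22.8% higher and 23.4% lower for cPLA_2_ KO, medians -0.0055 and 0.010). *Socs3*, an inhibitor induced by STAT factors, had 4343, 3919.9 and 4171 counts in nonconfined and 41187, 38353 and 39960.3 in confined cPLA_2_ WT libraries. In cPLA_2_ KO libraries it had 4204, 4296 and 4486 without and 5931, 5564 and 5759 with confinement. Confined cPLA_2_ WT libraries thus stood apart from the other libraries without LPS. Its log2 change was 3.27 (SE 0.052, adjusted p = 8.1e-22) for cPLA_2_ WT and 0.41 (SE 0.052, adjusted p = 1.38e-06) for cPLA_2_ KO cells. *Socs1*, another inhibitor of Janus kinases, changed by 0.98 (SE 0.061, adjusted p = 1.22e-11) and -0.24 (SE 0.061, adjusted p = 0.00276), and the phosphatase gene *Ptpn2* by 0.85 (SE 0.061, adjusted p = 1.03e-10) and 0.24 (SE 0.061, adjusted p = 0.00305). *Ptpn6*, which encodes another phosphatase, changed by -0.72 (SE 0.039, adjusted p = 9.45e-13) and -0.68 (SE 0.039, adjusted p = 7.27e-12). With LPS 5 of 6 were higher, with a median of 0.78 (all genes: 37.2% higher, median 0.020).

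Of 5 STAT5 targets, 3 were higher and 2 lower in confined cPLA_2_ WT cells and with LPS, and 1 was higher and 2 lower in confined cPLA_2_ KO cells. Their medians were 0.50 for confined cPLA_2_ WT, -0.0050 for confined cPLA_2_ KO and 0.84 for LPS-treated cells. Of all genes, 28.2% were higher and 28.4% lower in confined cPLA_2_ WT, 22.8% higher and 23.4% lower in confined cPLA_2_ KO and 37.2% higher and 34.3% lower in LPS-treated cells, with medians of -0.0055, 0.010 and 0.020. *Pim1*, a survival kinase, changed by 1.28 (SE 0.074, adjusted p = 2.59e-12) in cPLA_2_ WT and by 0.28 (SE 0.074, adjusted p = 0.00385) in cPLA_2_ KO cells. *Mcl1*, which encodes a survival protein, rose by 0.62 (SE 0.050, adjusted p = 7.66e-10) in cPLA_2_ WT cells and stood at 0.035 (SE 0.050, adjusted p = 0.609) in cPLA_2_ KO cells. *Myc*, a growth regulator, fell by 1.71 (adjusted p = 2.45e-11) in cPLA_2_ WT cells and fell by 0.82 (adjusted p = 3.58e-06) in cPLA_2_ KO cells. *Bcl2*, another survival gene, fell by 0.78 (adjusted p = 6.51e-10) in cPLA_2_ WT cells and fell by 0.50 (adjusted p = 1.29e-06) in cPLA_2_ KO cells.

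Of 8 STAT6 targets, 3 were higher and 3 lower in confined cPLA_2_ WT cells, 2 higher and 4 lower in confined cPLA_2_ KO cells, and 4 higher and 4 lower with LPS. The shares of all genes in the same order were 28.2% higher and 28.4% lower, 22.8% higher and 23.4% lower, and 37.2% higher and 34.3% lower. The medians were 0.032, -0.61 and -0.059, beside -0.0055, 0.010 and 0.020 for all genes. *Clec10a* and *Mgl2* encode lectins, and they changed by -1.39 and -1.08 in cPLA_2_ WT cells (adjusted p = 5.89e-10 and 2.91e-11) and by -1.32 and -1.08 in cPLA_2_ KO cells (adjusted p = 3.14e-09 and 8.4e-11). *Ccl22*, a chemokine for type 2 helper T cells, changed by 0.39 (SE 0.043, adjusted p = 9.85e-08) in cPLA_2_ WT and by -1.17 (SE 0.043, adjusted p = 6.11e-15) in cPLA_2_ KO cells, and these changes differed by -1.56 (SE 0.061, adjusted p = 1.14e-14).

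Some members that moved together are neighbours in the genome. In the mm39 build of the deposited values, *Il2ra* lies at chr2:11647603-11698005 and *Il15ra* at chr2:11710104-11738796, on the plus strand, and *Il4ra* at chr7:125151410-125178646 and *Il21r* at chr7:125202600-125232742, also on the plus strand. These positions are those of the deposited values. GENCODE, whose gene ends differ from them, has gaps of 12096 bases in the first pair and 19756 bases in the second by its own ends, with 0 genes in either. *Il2ra* and *Il15ra* changed alike with confinement and LPS, whereas *Il4ra* rose and *Il21r* fell with LPS. *Il2* lies at chr3:37174871-37180108 and *Il15* at chr8:83058247-83129853, both on the minus strand. *Il7r* lies at chr15:9506245-9529962 and *Il2rb* at chr15:78364751-78379267, both on the minus strand, *Il2rg* at chrX:100307989-100311861 on the minus strand and *Il13ra1* at chrX:35375759-35434912 on the plus strand. The span of *Adad1* overlaps exons of *Il2* on the opposite strand. Exons of *Il15*, *Il2ra*, *Il2rb*, *Il4ra* and *Il13ra1* each overlap the span of a long noncoding RNA gene on the other strand. Whether exons of both genes overlap was not examined. The libraries keep the strand, but whether the counting used it is not given in the sources used here.

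Promoters were read for members that moved together, from a RefSeq table of the GRCm38.p6 build, another build than that of the deposited values. It holds 9 starts of 8 of the 10 members, and *Il15* and *Il2rb* have no entry. The 250 bases before each start were searched on both strands for TTCNNNGAA, GAAANNGAA and GGANTTTCC. These are the core of a STAT site, the core of a site for interferon regulatory factors, and a narrow form of the core of an NF-κB site. Of all 32851 such windows, 7.02%, 7.13% and 1.07% hold them. Other forms of these sites were not searched. The cores can share bases, and none of the matches found did. Shown are the windows of the neighbours *Il2ra* (chr2:11642542-11642791, plus strand) and *Il15ra* (the first of its starts, chr2:11705043-11705292, plus strand), which moved together, and of *Il7r* (chr15:9529877-9530126, minus strand), which rose in both genotypes. Each runs 5′ to 3′ and ends at the base before the start, and capitals mark a match.
Il2ra: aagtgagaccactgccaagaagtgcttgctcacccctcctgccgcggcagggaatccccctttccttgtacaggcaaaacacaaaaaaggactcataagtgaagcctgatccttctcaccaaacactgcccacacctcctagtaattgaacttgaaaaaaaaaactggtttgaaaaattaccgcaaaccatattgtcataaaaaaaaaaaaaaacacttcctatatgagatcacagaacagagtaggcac
Il15ra: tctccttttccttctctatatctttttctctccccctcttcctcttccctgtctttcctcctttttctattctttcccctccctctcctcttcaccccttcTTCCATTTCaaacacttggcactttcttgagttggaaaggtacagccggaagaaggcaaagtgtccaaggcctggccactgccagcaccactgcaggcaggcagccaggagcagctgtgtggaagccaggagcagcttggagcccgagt
Il7r: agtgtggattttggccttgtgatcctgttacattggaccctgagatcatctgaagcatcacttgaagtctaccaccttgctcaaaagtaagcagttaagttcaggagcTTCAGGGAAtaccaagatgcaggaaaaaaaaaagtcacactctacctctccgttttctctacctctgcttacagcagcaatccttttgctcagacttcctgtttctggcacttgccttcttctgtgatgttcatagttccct
The *Il15ra* window holds a match of the core for interferon regulatory factors, read on the minus strand, whose first base in the printed run is at position -149 from the start. The *Il7r* window holds a match of the STAT core at -142, and the *Il2ra* window holds 0 matches of the letters searched. Among the other 6 windows searched, including the second start of *Il15ra*, there were 0 matches. A window with 0 matches may hold sites of other forms. A match is a description of the letters in these windows, and binding was not measured.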

How the data were processed

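The authors deposited 1 table of signal values per gene: gene counts of poly(A)-selected, stranded RNA libraries divided by each library's DESeq2 size factor, from reads mapped with STAR to mm39 and assigned to the Mouse FAST DB annotation. The submitters' processing notes list STAR 2.7.5a, featureCounts 1.5.0 and R 3.5.3. Conditions and replicates were taken from the sample titles. The deposited signal values were treated as normalized counts. Multiplying each library by its size factor gave whole reads for 100% of values, within a tolerance of 0.01.

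For 17875 genes (10 or more normalized counts in 3 or more libraries), limma 3.58.1 in R 4.3.3 was run on log2(value + 1), with a mean for each of 6 groups and a trended prior (lmFit, contrasts.fit, eBayes). P-values were adjusted over all genes by the Benjamini-Hochberg method, with a call under 0.05, and the added 1 shrinks changes of low genes. On recovered reads, edgeR 4.0.16 called 10102 genes and DESeq2 1.42.0 called 10267 for confinement of cPLA_2_ WT cells, and limma 10113. The procedure was tested on simulated data.

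Named genes were all members, up to 4 genes per pathway list with the largest changes among those called, the label checks and, per member, up to 2 genes with the highest Pearson r. *Il7*, *Il9r*, *Jak3* and single cell type markers are named beyond this rule, chosen after their values were seen. Members and lists were chosen with earlier results of these data known. Depth makes counting error small except for *Il2*, *Il2rb* and other genes under 100 counts. Exon lengths came from GENCODE vM39, and promoters from RefSeq (GRCm38.p6). The alternatives were other pseudocounts, filters, scalings, tests, call rules, left-out libraries and a replicate block.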

Additional observations from a re-analysis of the deposited data

Results flagged for a closer look

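For 7 members the change with confinement differed between the genotypes by the limma test of that difference. The change in cPLA_2_ KO minus that in cPLA_2_ WT cells was -2.08 for *Il15*, -1.84 for *Il15ra* and -2.16 for *Il2ra* on the log2 scale, and these 3 rose in cPLA_2_ WT and fell in cPLA_2_ KO cells. It was -0.69 for *Il13ra1*, which also changed in opposite directions. It was -1.05 for *Il4ra* and -0.61 for *Il2rg*, which rose less in cPLA_2_ KO cells, and -2.57 for *Il2rb*, whose change in cPLA_2_ KO cells was not called. For *Il2rb* this difference lost its call without any of 7 of 12 single libraries, with values from -3.15 to -1.66, and without a filter (adjusted p = 0.0763). The change of *Il2rb* in cPLA_2_ KO cells was called with a pseudocount of 5 (adjusted p = 0.0287) and with DESeq2 (adjusted p = 0.0305). Granulocyte markers and Y-linked genes differed between the same groups, and their part in these differences was not tested. Groups of 3 libraries were not tested for outlying values.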

How the results depend on the processing

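Of 1034 values of single members under alternatives, 999 kept their side of the threshold, 17 lost and 18 gained a call, and 0 called values turned. These values leave out the call rules that need a fold change. Fits without 1 library enter only as the lowest and highest value per member and comparison. A call lost without several libraries, as for *Il2rb* above, thus weighs no more than a call lost without 1. The count of members called moved by more than 1.5 times in some comparisons. When a call also needed an absolute log2 fold change above 1, confinement of cPLA_2_ KO cells had 3 members in place of 9, confined cPLA_2_ KO against cPLA_2_ WT cells 4 in place of 8, confined cPLA_2_ WT cells against LPS 5 in place of 10, and nonconfined cPLA_2_ KO against cPLA_2_ WT cells 0 in place of 2. By smaller factors, the same rule gave 7 in place of 10 for confinement of cPLA_2_ WT cells, 5 in place of 7 for the difference of the changes and 8 in place of 10 for LPS. An unadjusted p with a fold change of 1.5 gave 6 in place of 9 for confinement of cPLA_2_ KO cells. The count between nonconfined genotypes was 0 by that rule, 1 without a filter and 1 with only the compared conditions fitted, where fewer libraries estimate the spread. Leaving out 1 library gave 1 to 3 members between nonconfined genotypes, 10 throughout for confinement of cPLA_2_ WT cells, 8 to 9 for that of cPLA_2_ KO cells, 6 to 7 for the difference of these changes, 8 to 9 for the confined genotypes, 10 throughout for LPS, 10 throughout for confined cPLA_2_ WT cells against LPS and 0 throughout for the LPS labels. Without the 6 LPS libraries, an alternative chosen after seeing the data, confinement had 10 members in cPLA_2_ WT and 9 in cPLA_2_ KO cells. The difference of these changes then had 7, the confined genotypes 8 and the nonconfined genotypes 2. The causes of these changes were not tested. Under the call rules that need a fold change, the share of all genes called was not taken, so those counts have no share beside them.

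The same numbers in different groups did not pair the libraries: residual correlations of same-numbered libraries ran from -0.14 to 0.34, and none of 8 pairs of groups had all of them over 0.1. With the replicate number as a replicate block, 1 member was called between nonconfined genotypes in place of 2, without *Il4ra*, and 10, 9, 7, 8, 10, 10 and 0 in the other comparisons.

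At these depths, 0 reads of *Il2* limit only the fold change to a lower bound.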
